A study of Homo sapiens with 13 samples.

Results

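The transcripts of 10 genes of the replication and DNA damage checkpoint were followed in TE11 cells, labelled as a human line of esophageal squamous cell carcinoma: the apical kinases ATM and ATR, the ATR partner ATRIP, the ATR activators TOPBP1 and ETAA1, the adaptor CLSPN, the effector kinases CHEK1 and CHEK2, and WEE1 and CDC25A, which act on cyclin-dependent kinases with opposite effects. The genes were picked by symbol for their known place in the pathway, and all 10 were among the 60591 genes of the table and among the 19514 that passed the filter on low counts. Cells received 10 µM chloroquine together with 25 µM 5-fluorouracil (combination, n = 3 libraries), 25 µM 5-fluorouracil alone (5-FU, n = 3), 10 µM chloroquine alone (n = 3) or 0.1% DMSO as vehicle (n = 4), each for 48 h. The series title places the work in the question of whether chloroquine makes 5-FU more effective. The labels do not say whether replicates came from separate cultures. The p-values therefore reflect the spread among 13 libraries of 1 cell line, and that spread may be technical.

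ATR is the kinase of stalled replication forks. ATRIP carries it to single-stranded DNA coated with RPA, TOPBP1 or ETAA1 switches it on, and claspin, the product of CLSPN, then presents the kinase CHK1 (CHEK1) to it. ATM is the kinase of DNA breaks and activates CHK2 (CHEK2). The effector kinases mark the phosphatase CDC25A for destruction, and WEE1 places an inhibitory phosphate on cyclin-dependent kinases, so that the cell cycle waits for repair. Chloroquine is a weak base that gathers in lysosomes, and 5-FU is a pyrimidine analogue that blocks thymidylate synthase. Much of this pathway is controlled at the protein, which was not measured here.

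Total counts ran from 17834539 to 23679833 per library, and a member had at least 629 and at most 6166 counts in any library. Levels are given as CPM, counts scaled by TMM to a common library size, differences as log2 fold changes ± SE, and a gene was called at an adjusted p under 0.05 from the quasi-likelihood test of edgeR with Benjamini-Hochberg adjustment over all genes tested. Libraries did not all look alike. COL1A2, a fibroblast collagen gene, had 153 to 741 counts in 5 libraries (combination 2, 5-FU 2, chloroquine 1, chloroquine 2 and vehicle 4) and 1 to 7 counts in the other 8. The summed level of 5 fibroblast markers was 13.4 to 31.1 CPM in the combination, 25.9 to 43.4 CPM in 5-FU, 11.7 to 94.0 CPM in chloroquine and 9.73 to 121 CPM in vehicle. The label of a squamous line found little support in its markers, since 10 of 12 squamous epithelial markers had at most 10 counts in each of those 8 libraries, with KRT5, KRT6A, KRT4, PKP1 and IVL at 0 in all of them. DSC3 was the marker with a level throughout, at 2063 to 4113 counts in those 8, and the 12 markers summed to 169 to 189.8 CPM in the combination, 109.7 to 127 CPM in 5-FU, 160.2 to 165 CPM in chloroquine and 110.1 to 119 CPM in vehicle. The proliferation markers MKI67 and TOP2A summed to 705 to 754 CPM in the combination, 736 to 853 CPM in 5-FU, 835 to 890 CPM in chloroquine and 691 to 814 CPM in vehicle. On this measure without TMM, chloroquine libraries lay above vehicle for this pair. TMM factors were 0.925 to 0.947 in vehicle and 0.993 to 0.999 in chloroquine. The nearest libraries were vehicle 4 (814 CPM, factor 0.947) and chloroquine 3 (835 CPM, factor 0.993). Divided by these factors, vehicle 4 lies above chloroquine 3, so the order does not hold after TMM. The part of these differences in the results was not tested. COL1A2 alone set the 5 libraries called those with tissue transcripts. Leukocyte markers summed to 10.1 to 16.1 CPM in vehicle 4, chloroquine 1 and 2 and 5-FU 2, but to 1.03 CPM in combination 2. The fibroblast sum of combination 2, 31.1 CPM, was near the 31.4 CPM of 5-FU 1, which is not among the 5. Values are also given without the 5 libraries, which leaves chloroquine with 1 library that is then assumed to vary like the others.

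In the combination, 7 of the 10 genes were called against vehicle, 1 higher and 6 lower, where 55.4% of all genes tested were called. In 5-FU, 5 were called, all lower, against 60.3% of all genes. In chloroquine, 4 were called, 2 higher and 2 lower, against 39.4% of all genes. Without the 5 libraries with tissue transcripts the counts were 4 in the combination (ATR, TOPBP1 and CHEK2 lower, CHEK1 higher), 5 in 5-FU and 3 in chloroquine. The combination count was also 4 without any 1 of 8 libraries (vehicle 1, 3 or 4, chloroquine 1 or 2, or combination 1, 2 or 3), and 3 with a filter at 10 CPM. That filter left fewer genes, and a share of them larger than 55.4% was called in the combination (3700 higher and 3750 lower). The shares of all genes given above are those of the main fit. They are therefore no measure for the counts without some libraries or with another filter. Without the 5 libraries, and without any 1 of those 8, a share of all genes smaller than 55.4% was called in the combination. The falls to 4 and 3 were not tested against the shares of their own fits. They are no result about the checkpoint genes. Counts near the share of all genes are no result about the checkpoint genes as a set. Their differences were mostly small. The median absolute log2 fold change of the 10 genes was 0.18 in the combination, 0.13 in 5-FU and 0.10 in chloroquine, where all genes tested had medians of 0.36, 0.41 and 0.26 in the same order of treatments. The 3 treatments share the vehicle libraries, so their fold changes are not independent of each other. Among the larger differences from vehicle were a fall of ATR in both groups with 5-FU, a rise of ATM in chloroquine, a fall of ETAA1 in 5-FU and a fall of CHEK2 in both groups with chloroquine.

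**Figure D1:**
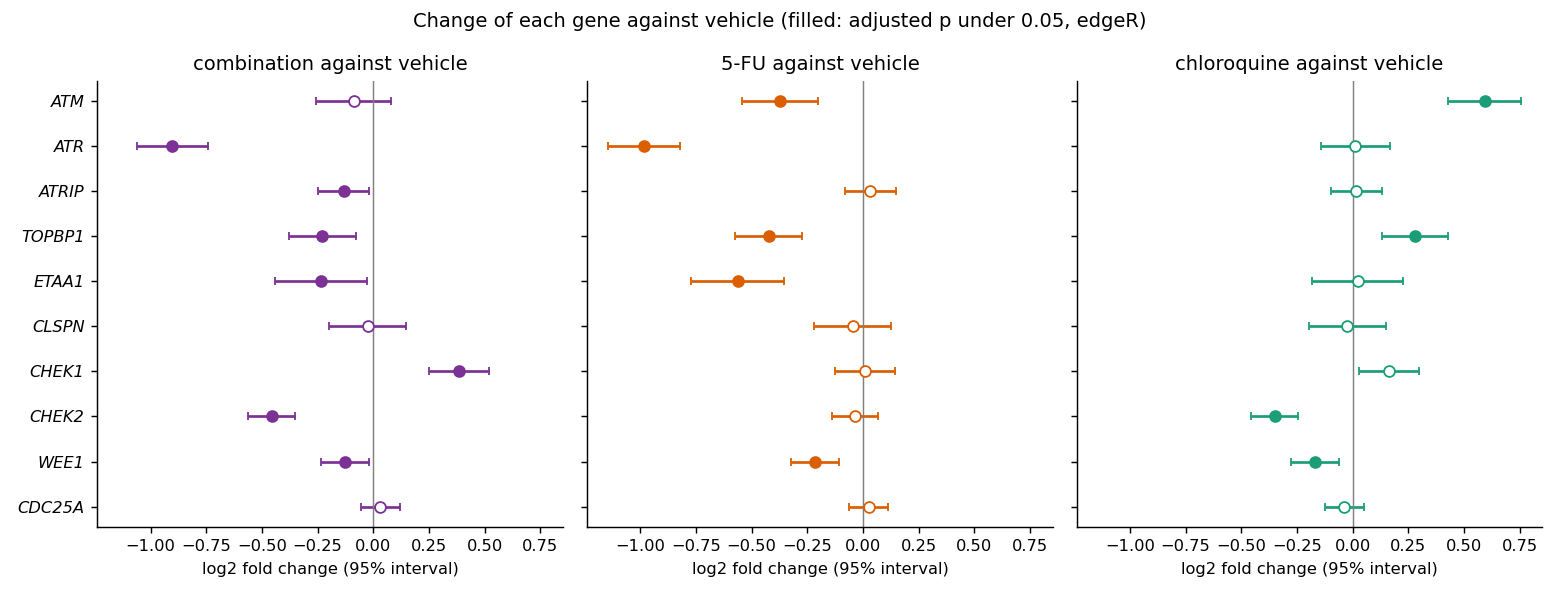
Log2 fold changes of the 10 genes against vehicle (x axis) in the combination, 5-FU and chloroquine, with 95% confidence intervals as whiskers and filled points for genes called. ATR lies near -1 in both panels with 5-FU and at 0.01 in chloroquine, ATM at 0.59 in chloroquine, and CHEK2 left of 0 in both panels with chloroquine.

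The stretches of 250 bases before the annotated starts of ATR, ATM, CHEK2 and CDC25A are shown because these genes gave 4 different patterns: ATR was lower with 5-FU, ATM higher with chloroquine, CHEK2 lower with chloroquine, and CDC25A level in all groups. The sequences are RefSeq's, build GRCh38.p14, 5′ to 3′ on the strand of the gene. Capitals mark CCAAT boxes (ATTGG or its reverse complement CCAAT) and the E2F motif TTTGGCGC. ATM is on the plus strand at chr11:108222817-108223066, the upstream of its 2 listed starts. ATR is on the minus strand at chr3:142578734-142578983, CHEK2 on the minus strand at chr22:28741821-28742070 and CDC25A on the minus strand at chr3:48188418-48188667.
ATR: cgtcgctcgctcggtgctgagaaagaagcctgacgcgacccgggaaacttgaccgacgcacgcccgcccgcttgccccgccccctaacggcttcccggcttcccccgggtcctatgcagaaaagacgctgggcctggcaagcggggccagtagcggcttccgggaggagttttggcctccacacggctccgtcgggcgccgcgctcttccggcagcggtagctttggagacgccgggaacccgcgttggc
ATM: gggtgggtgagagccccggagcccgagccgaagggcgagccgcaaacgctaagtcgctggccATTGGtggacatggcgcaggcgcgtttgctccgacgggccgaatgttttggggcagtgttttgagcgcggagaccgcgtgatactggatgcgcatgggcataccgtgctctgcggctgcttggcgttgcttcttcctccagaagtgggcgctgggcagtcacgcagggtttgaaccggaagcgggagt
CHEK2: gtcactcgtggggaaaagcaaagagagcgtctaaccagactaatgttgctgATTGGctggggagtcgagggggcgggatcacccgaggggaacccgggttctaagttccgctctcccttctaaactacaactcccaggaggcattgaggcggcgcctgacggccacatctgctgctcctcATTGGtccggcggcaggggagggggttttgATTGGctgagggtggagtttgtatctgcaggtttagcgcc
CDC25A: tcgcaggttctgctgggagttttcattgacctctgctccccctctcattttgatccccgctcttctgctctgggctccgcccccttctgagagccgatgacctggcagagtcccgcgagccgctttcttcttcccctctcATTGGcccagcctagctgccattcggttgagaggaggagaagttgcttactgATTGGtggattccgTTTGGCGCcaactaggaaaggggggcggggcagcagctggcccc

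Entries were at hand for 9 of the 10 genes, with 13 starts in all. An E2F motif, spelled TTTGGCGC or TTTCGCGC and sought on both strands, stood in 1 of the 9 genes, CDC25A, with its first base at position -44 from the start. Over 35116 promoter windows of the same length, 0.968% held either spelling. The CCAAT box, which does not overlap the E2F motif in any of these windows, occurs in 32.0% of all windows. It is found 3 times in the CHEK2 window, 2 times in that of CDC25A and 1 time in that of ATM, and the ATR window holds none. These matches describe the letters of the windows only.

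ATR, the kinase of stalled forks, fell most among the 10 genes. It had 49.9, 49.4 and 44.2 CPM in combination libraries 1 to 3, 40.9, 47.8 and 46.9 CPM in 5-FU, 91.7, 92.2 and 86.7 CPM in chloroquine, and 81.0, 87.6, 90.9 and 98.1 CPM in vehicle. Every library with 5-FU lay below every library without it, and the chloroquine libraries lay within the vehicle range. Groups without overlap, here and in the genes below, were common. Against vehicle, 58.8% of all genes tested did not overlap in the combination, 58.1% in 5-FU and 47.8% in chloroquine. The combination did not overlap 5-FU in 46.6% and chloroquine in 60.5% of genes. The share that splits by 1 drug over all libraries was not computed. ATR fell by 49.4% in 5-FU against vehicle (log2 fold change -0.98 ± 0.0751, adjusted p = 6.22e-08) and by 46.5% in the combination against vehicle (-0.90 ± 0.0748, adjusted p = 1.74e-07). In a measure of total RNA from a culture, fewer cells that express a gene and less RNA of it per cell cannot be told apart. With chloroquine alone it had a log2 fold change of 0.01 and a 95% confidence interval of -0.14 to 0.17. Adding chloroquine to 5-FU gave 0.08 ± 0.0801 (adjusted p = 0.467, interval -0.09 to 0.25). Without the 5 libraries with tissue transcripts, the values against vehicle were -0.89 in the combination and -0.99 in 5-FU, about as large as with them.

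ATM, the kinase of DNA breaks, followed another course. Its levels were 58.6, 55.9 and 50.8 CPM in the combination, 39.9, 49.5 and 46.2 CPM in 5-FU, 89.8, 91.2 and 83.6 CPM in chloroquine, and 54.2, 56.8, 58.9 and 64.1 CPM in vehicle. The chloroquine libraries were the highest and the 5-FU libraries the lowest, with no overlap with vehicle in either case, while the combination overlapped vehicle. ATM rose 1.51-fold in chloroquine against vehicle (log2 fold change 0.59 ± 0.0771, adjusted p = 4.02e-05) and fell by 22.7% in 5-FU against vehicle (-0.37 ± 0.0797, adjusted p = 0.000982). In the combination the difference from vehicle was -0.09 ± 0.0787 (adjusted p = 0.369, interval -0.26 to 0.08). The rise in chloroquine was 0.56 without the 5 libraries with tissue transcripts (adjusted p = 0.000968), and the fall in 5-FU was -0.40. With scaling by library size only, the fall in 5-FU became -0.18 (adjusted p = 0.0788).

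**Figure D2:**
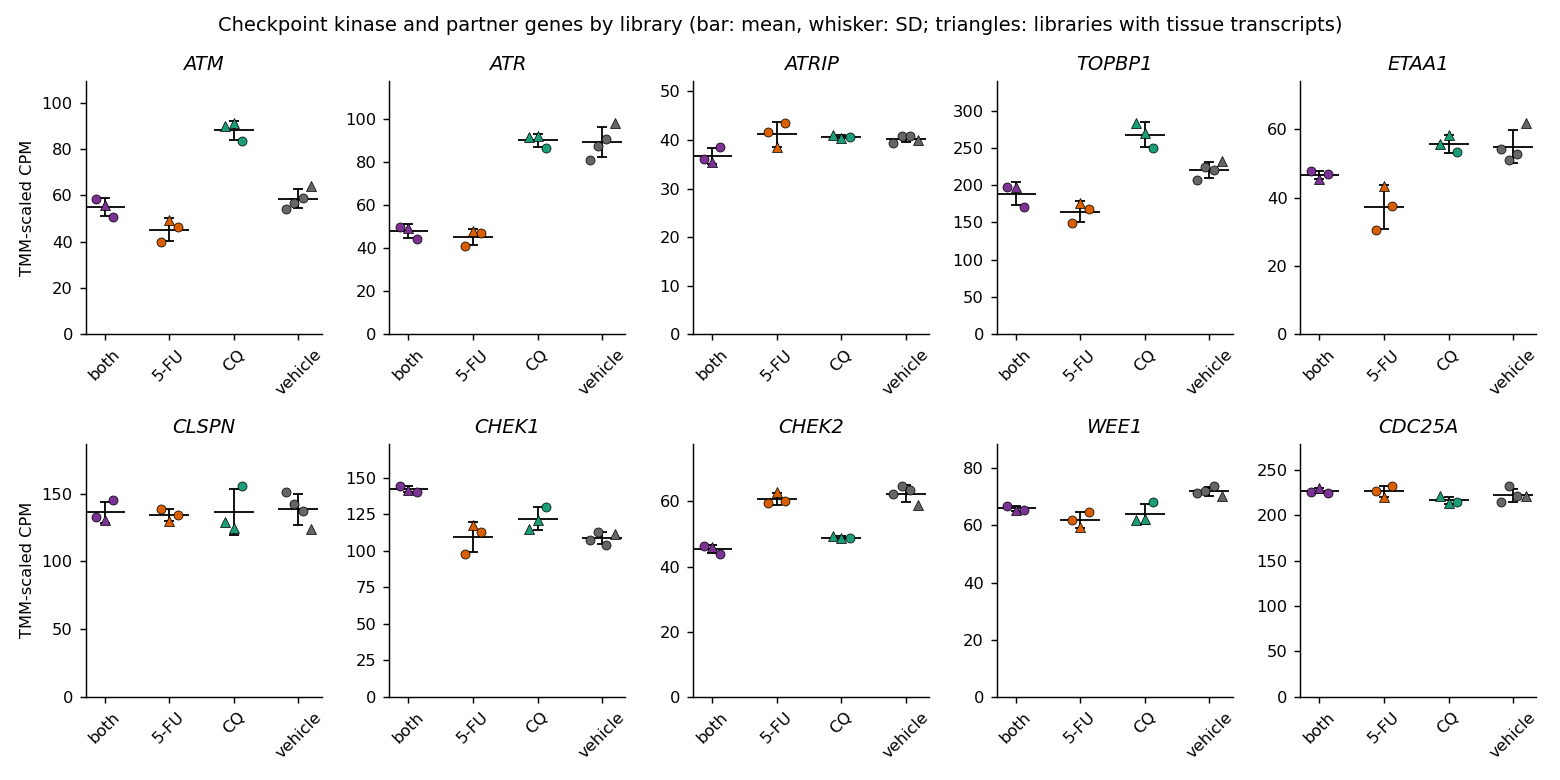
TMM-scaled CPM (y axis, from 0) of each gene in each library of the combination (both), 5-FU, chloroquine (CQ) and vehicle, with bars for means, whiskers for SD and triangles for the 5 libraries with tissue transcripts. ATR splits by 5-FU, CHEK2 splits by chloroquine, and CDC25A and CLSPN overlap vehicle in each treatment.

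Within a library, the ratio of ATM counts to ATR counts does not depend on how libraries are scaled. This ratio was chosen after the values were seen and has no test. It averaged 1.15 ± 0.0203 in the combination, 0.999 ± 0.0313 in 5-FU, 0.978 ± 0.0127 in chloroquine and 0.655 ± 0.0101 in vehicle (SD). No treated library reached the vehicle range of 0.648 to 0.670, and the combination, at 1.13 to 1.17, lay above both drugs given alone. In 5-FU both genes were lower than in vehicle and ATR more so, and in chloroquine ATM was higher and ATR was level.

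ATRIP, the subunit through which ATR finds single-stranded DNA, stayed nearly level. It had 36.1, 35.4 and 38.6 CPM in the combination, 41.5, 38.5 and 43.5 CPM in 5-FU, 40.9, 40.4 and 40.7 CPM in chloroquine, and 39.5, 40.8, 40.8 and 39.9 CPM in vehicle. The combination libraries lay below vehicle, and those of each drug alone lay about the vehicle values. The log2 fold change was -0.13 ± 0.0537 in the combination against vehicle (adjusted p = 0.0473), 0.03 ± 0.0533 in 5-FU and 0.02 ± 0.0536 in chloroquine. The call in the combination was lost without any 1 of vehicle 1 to 4, chloroquine 1 or 2, or combination 1 or 2, at -0.14 to -0.11 and adjusted p = 0.0572 to 0.152, and without the 5 libraries with tissue transcripts (-0.12, adjusted p = 0.199). The ratio of ATR to ATRIP counts was 1.31 ± 0.142 in the combination and 1.10 ± 0.131 in 5-FU, against 2.22 ± 0.0781 in chloroquine and 2.22 ± 0.173 in vehicle (SD, with no test). TREX1, an exonuclease gene annotated on the same strand within the span of ATRIP, was listed with 0 counts in every library, so the share of its reads in the ATRIP counts is not known.

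Both activators of ATR were lower in 5-FU. TOPBP1, which works from the 9-1-1 clamp, had 198, 197 and 170.2 CPM in the combination, 149, 176 and 168 CPM in 5-FU, 283, 271 and 250.0 CPM in chloroquine, and 207, 224, 220.2 and 232 CPM in vehicle. All 5-FU and combination libraries lay below all vehicle libraries, and all chloroquine libraries above. TOPBP1 fell by 25.5% in 5-FU (log2 fold change -0.42 ± 0.0706, adjusted p = 0.000119) and fell by 14.7% in the combination (-0.23 ± 0.0702, adjusted p = 0.0122). It rose 1.21-fold in chloroquine (0.28 ± 0.0694, adjusted p = 0.00546). Without the 5 libraries with tissue transcripts the values were -0.46 in 5-FU and -0.25 in the combination, both still called, and 0.20 in chloroquine, which was not (adjusted p = 0.143). The call in the combination was lost without combination 3, at -0.16 (adjusted p = 0.0714). It was also lost with library size only (-0.08, adjusted p = 0.382) and with the filter at 10 CPM (-0.17, adjusted p = 0.0516).

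ETAA1, the activator that binds RPA directly, had 47.8, 45.4 and 46.9 CPM in the combination, 30.5, 43.5 and 37.7 CPM in 5-FU, 55.8, 58.5 and 53.2 CPM in chloroquine, and 54.2, 51.0, 52.8 and 61.8 CPM in vehicle. The 5-FU libraries spread widely and lay lowest, and chloroquine lay within the vehicle range. ETAA1 fell by 32.2% in 5-FU against vehicle (log2 fold change -0.56 ± 0.0976, adjusted p = 0.000173; -0.64 without the 5 libraries with tissue transcripts). In the combination it was -0.24 ± 0.0959 (adjusted p = 0.0495), a call that was lost without any 1 of 9 libraries, at -0.26 to -0.17 and adjusted p = 0.0536 to 0.141, vehicle 2, chloroquine 3 and 5-FU 1 and 2 being those that could be left out without losing it. It was also lost without the 5 libraries with tissue transcripts, at -0.16. Chloroquine gave 0.02 ± 0.0952 (adjusted p = 0.876). The counts of TOPBP1 were on average 4.03 ± 0.366 times those of ETAA1 in the combination, 4.47 ± 0.437 times in 5-FU, 4.80 ± 0.242 times in chloroquine and 4.03 ± 0.301 times in vehicle (SD).

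CLSPN, the adaptor between ATR and CHK1, was not called in any comparison. It had 133, 130.4 and 145 CPM in the combination, 139, 129.8 and 134 CPM in 5-FU, 129, 124 and 156 CPM in chloroquine, and 151, 142, 137 and 124 CPM in vehicle. The groups overlapped throughout. Its largest log2 fold change against vehicle was -0.05 ± 0.0799 in 5-FU (adjusted p = 0.641, interval -0.22 to 0.12).

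The effector kinases differed between the groups in opposite directions. CHEK1, the target of ATR, had 144, 141 and 140.3 CPM in the combination, 98.1, 118 and 113 CPM in 5-FU, 115, 121 and 130.1 CPM in chloroquine, and 108, 113, 104 and 111 CPM in vehicle. The combination libraries lay above all others, and 5-FU spread on both sides of vehicle. CHEK1 rose 1.31-fold in the combination against vehicle (log2 fold change 0.38 ± 0.0627, adjusted p = 0.000117), and was also higher in the combination than in 5-FU (0.37 ± 0.0672, adjusted p = 0.000569). Against vehicle the value was 0.01 ± 0.0634 in 5-FU (adjusted p = 0.902, interval -0.13 to 0.15). In chloroquine it was 0.16 ± 0.0632, with no overlap with vehicle but an adjusted p of 0.0527, and it passed without chloroquine 1 (0.20) or without 5-FU 1 (0.15), and without the 5 libraries with tissue transcripts (0.26, adjusted p = 0.0452). It also passed with library size only (0.26), the filter at 10 CPM (0.22) and a fit of only the groups compared (0.18). The combination also exceeded chloroquine, by 0.22 ± 0.0672 (adjusted p = 0.0134), a call that was lost without chloroquine 1 (0.18, adjusted p = 0.0746) and without the 5 libraries with tissue transcripts (0.12, adjusted p = 0.347). The rise against vehicle was 0.39 without those 5 libraries.

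CHEK2, the target of ATM, had 46.3, 46.0 and 44.0 CPM in the combination, 59.6, 63.0 and 60.0 CPM in 5-FU, 49.3, 48.7 and 48.7 CPM in chloroquine, and 62.3, 64.8, 63.6 and 58.8 CPM in vehicle. Every library with chloroquine lay below every library without it, and the 5-FU libraries lay within the vehicle range. CHEK2 fell by 27.2% in the combination against vehicle (log2 fold change -0.46 ± 0.0494, adjusted p = 2.41e-06) and by 21.5% in chloroquine against vehicle (-0.35 ± 0.0494, adjusted p = 7.87e-05). In 5-FU the value was -0.03 ± 0.0485 (adjusted p = 0.565, interval -0.14 to 0.07). The combination differed from chloroquine by -0.11 ± 0.0529 (adjusted p = 0.107). Without the 5 libraries with tissue transcripts the values against vehicle were -0.50 in the combination and -0.39 in chloroquine.

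The ratio of CHEK1 to CHEK2 counts, also chosen after the values were seen, averaged 3.13 ± 0.0583 in the combination, 1.80 ± 0.133 in 5-FU, 2.49 ± 0.172 in chloroquine and 1.75 ± 0.107 in vehicle (SD, no test). The combination libraries, at 3.08 to 3.19, lay above those of chloroquine, at 2.33 to 2.67, and both lay above vehicle, whose highest library was at 1.89. The 5-FU libraries overlapped vehicle. Of CHEK1 and its adaptor CLSPN, the count ratio was 1.05 ± 0.0681 in the combination, 0.818 ± 0.102 in 5-FU, 0.899 ± 0.0689 in chloroquine and 0.789 ± 0.0790 in vehicle, and the combination did not overlap vehicle.

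**Figure D3:**
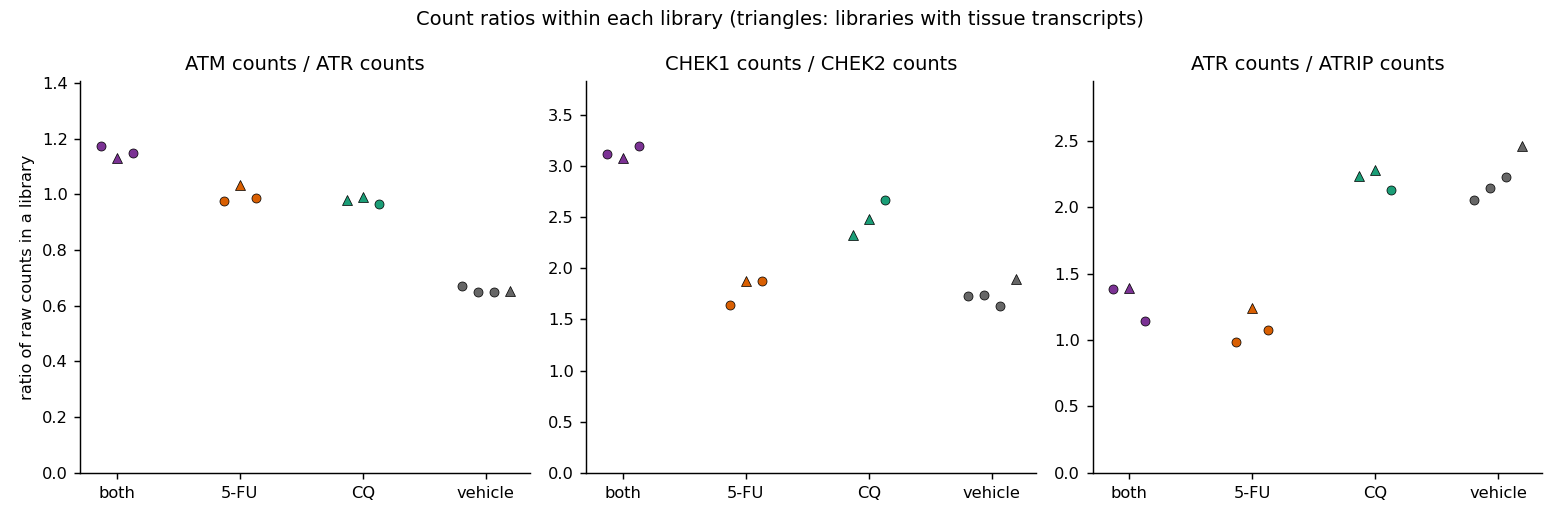
Ratios of raw counts within each library (y axis, from 0) for ATM over ATR, CHEK1 over CHEK2 and ATR over ATRIP in the combination (both), 5-FU, chloroquine (CQ) and vehicle, with 1 point per library and triangles for the 5 libraries with tissue transcripts. The combination lies highest for ATM over ATR (1.13 to 1.17) and for CHEK1 over CHEK2 (3.08 to 3.19), and both groups with 5-FU lie low for ATR over ATRIP.

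WEE1 and CDC25A, the kinase and the phosphatase that meet at cyclin-dependent kinases, showed small differences or none that were called. WEE1 had 66.8, 65.4 and 65.5 CPM in the combination, 61.8, 59.4 and 64.8 CPM in 5-FU, 61.7, 62.3 and 68.0 CPM in chloroquine, and 71.5, 72.0, 73.8 and 70.3 CPM in vehicle. All 9 treated libraries lay below all vehicle libraries. WEE1 fell by 8.34% in the combination (log2 fold change -0.13 ± 0.0504, adjusted p = 0.0470), by 13.8% in 5-FU (-0.21 ± 0.0506, adjusted p = 0.00206), and was also lower in chloroquine (-0.17 ± 0.0507, adjusted p = 0.0168). The call in the combination was lost without any 1 of the 4 vehicle libraries, chloroquine 1 or 2 or any combination library, at -0.14 to -0.11 and adjusted p = 0.0509 to 0.114, and that in chloroquine without chloroquine 1 (-0.14) or 2 (-0.15). WEE1 without the 5 libraries with tissue transcripts was at -0.14 in the combination (adjusted p = 0.103), -0.21 in 5-FU (adjusted p = 0.0178) and -0.09 in chloroquine (adjusted p = 0.488). The call in chloroquine was also lost with no filter on low counts (-0.17, adjusted p = 0.0755) and with the filter at 10 CPM (-0.12, adjusted p = 0.0613). Library size only in place of TMM ended all 3 calls, at 0.02 in the combination, -0.02 in 5-FU and -0.07 in chloroquine.

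CDC25A had 226, 231 and 225 CPM in the combination, 227, 220.3 and 233 CPM in 5-FU, 221, 214 and 215 CPM in chloroquine, and 215, 232, 222 and 221 CPM in vehicle. It was not called in any comparison, and its log2 fold changes against vehicle were 0.03 in the combination (interval -0.06 to 0.12), 0.03 in 5-FU (interval -0.06 to 0.11) and -0.04 in chloroquine (interval -0.12 to 0.05). It is the member with the narrowest spread over the 13 libraries. With library size only it was called at 0.18 in the combination and 0.22 in 5-FU, where that scaling moved the median of all genes by 0.15 and 0.19. The ratio of WEE1 to CDC25A counts was 0.290 ± 0.00585 in the combination, 0.274 ± 0.00459 in 5-FU, 0.295 ± 0.0188 in chloroquine and 0.323 ± 0.0114 in vehicle (SD, no test). The combination and 5-FU did not overlap vehicle in this ratio, whereas chloroquine did.

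The combination was also set against each drug given alone, in comparisons that share the combination libraries. Against 5-FU, 5 of the 10 genes were called, where 38.5% of all genes were: CHEK1 (0.37), ETAA1 (0.33 ± 0.103, adjusted p = 0.0222) and ATM (0.28 ± 0.0844, adjusted p = 0.0156) were higher in the combination, and CHEK2 (-0.42 ± 0.0523, adjusted p = 2.78e-05) and ATRIP (-0.17 ± 0.0568, adjusted p = 0.0312) lower. TOPBP1 did not pass, at 0.19 ± 0.0749 (adjusted p = 0.0539), and did so without 5-FU 2 (0.24, adjusted p = 0.0266) or combination 3 (0.26, adjusted p = 0.0152). The rise of ATM was lost without 5-FU 1 or combination 1 (0.20 and 0.24), that of ETAA1 without 5-FU 1 or 3 or combination 1 or 3 (0.20 to 0.33), and the fall of ATRIP without 5-FU 3 or combination 1 or 2 (-0.16 to -0.13). Residuals of same-numbered libraries of these 2 groups correlated at 0.341, 0.743 and 0.339. The highest was between combination 2 and 5-FU 2, both with tissue transcripts, and libraries of unlike number were not correlated. In the paired fit with the replicate block ATRIP was lost (-0.18, adjusted p = 0.145), leaving 4 calls. The count was 2 when only the groups compared were fitted. Without the 5 libraries with tissue transcripts, CHEK1 (0.43), ETAA1 (0.47), ATM (0.34) and CHEK2 (-0.40) were called, and ATRIP was not (-0.19, adjusted p = 0.0893).

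Against chloroquine, 6 of the 10 genes were called in the combination, where 50.6% of all genes were. ATR (-0.92 ± 0.0788, adjusted p = 4.02e-07), ATM (-0.68 ± 0.0829, adjusted p = 1.04e-05) and TOPBP1 (-0.51 ± 0.0747, adjusted p = 5.66e-05) were lower in the combination and kept their calls without the 5 libraries with tissue transcripts, at -0.89, -0.62 and -0.45. ETAA1 (-0.26 ± 0.102, adjusted p = 0.0468) and ATRIP (-0.15 ± 0.0571, adjusted p = 0.0418) were lower and CHEK1 higher, and these 3 calls did not hold without those libraries. Each of ETAA1 and ATRIP lost its call without any 1 of 10 libraries: for ATRIP all but 5-FU 1 and 2 and combination 3 (-0.16 to -0.11), and for ETAA1 all but vehicle 4 and 5-FU 1 and 2 (-0.28 to -0.23).

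The interaction asks whether the effect of both drugs differs from the sum of their separate effects on the log2 scale. It was called for 2 of the 10 genes, against 39.9% of all genes. ATM was lower in the combination than the sum of both effects, by -0.31 ± 0.115 (adjusted p = 0.0450). That call was lost without any 1 of 9 libraries, at -0.31 to -0.23 and adjusted p = 0.0666 to 0.115, the exceptions being vehicle 4, chloroquine 3, 5-FU 1 and combination 1. It was also lost without the 5 libraries with tissue transcripts (-0.21, adjusted p = 0.286). WEE1 was higher than the sum, by 0.26 ± 0.0739 (adjusted p = 0.0129), a call kept without each single library. That call was lost without the 5 libraries with tissue transcripts (0.16). It was also lost with library size only (0.12, adjusted p = 0.218) and with the filter at 10 CPM (0.17, adjusted p = 0.0625). CHEK1 (0.21 ± 0.0924, adjusted p = 0.0856), ETAA1 (0.30 ± 0.141, adjusted p = 0.103) and ATRIP (-0.18 ± 0.0781, adjusted p = 0.0782) did not pass, and each passed without 5-FU 2, at 0.28 for CHEK1, 0.44 for ETAA1 and -0.22 for ATRIP. CHEK1 also passed without chloroquine 3 (0.27), and ETAA1 without the 5 libraries with tissue transcripts (0.46, adjusted p = 0.0236). For ATR the interaction was 0.07 ± 0.108 (adjusted p = 0.663, interval -0.16 to 0.30), and for CHEK2 it was -0.07 ± 0.0717 (adjusted p = 0.457, interval -0.23 to 0.08).

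Levels of different genes can be set side by side only per length, here as CPM divided by the annotated exon length in kilobases. In the combination, CHEK1 stood at 21.7 ± 0.323 CPM per kb and CHEK2 at 10.1 ± 0.280, and ATR at 3.83 ± 0.253 and ATM at 2.30 ± 0.165 (SD, n = 3). The order in vehicle was CDC25A at 54.1 ± 1.76, TOPBP1 at 30.2 ± 1.45, CLSPN at 25.6 ± 2.11, CHEK1 at 16.6 ± 0.596 and CHEK2 at 13.9 ± 0.576 CPM per kb (SD, n = 4). WEE1 at 7.78 ± 0.158, ATRIP at 7.41 ± 0.124, ETAA1 at 7.35 ± 0.635 and ATR at 7.16 ± 0.569 CPM per kb lay within a common range, and those 4 neighbours do not all differ beyond their spread. ATM was the lowest, at 2.44 ± 0.175 CPM per kb. The exon lengths are those of GENCODE release 29 over all its transcripts of a gene, 23972 bases for ATM and 12496 for ATR, so a gene with long exons that these cells do not use appears lower.

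ATM and ATR span 146.6 and 129.6 kb of genome, the longest of the 10 genes, and WEE1 and ETAA1, at 19.8 and 14.8 kb, the shortest. Span was looked at after the values were seen, because log2 fold changes of protein-coding genes moved with it. In 5-FU against vehicle the median was 0.11 in genes under 10 kb and -0.19 in genes over 100 kb, while in chloroquine it was -0.05 in genes under 10 kb and 0.06 in genes over 100 kb. In 5-FU, ATR stood at percentile 3.92 of the 2803 genes over 100 kb and ATM at percentile 33.6, so the fall of ATR was far below the middle of its class and that of ATM was not. ETAA1 is short, and stood at percentile 8.77 of the 3056 genes of 10 to 25 kb. In chloroquine, ATM stood at percentile 89.3 of its class and ATR at 42.9, and CHEK2 at percentile 9.52 of the genes of 50 to 100 kb. Percentiles describe the place of a gene in these libraries and are no test, and the part of span in the differences was not tested.

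**Figure D4:**
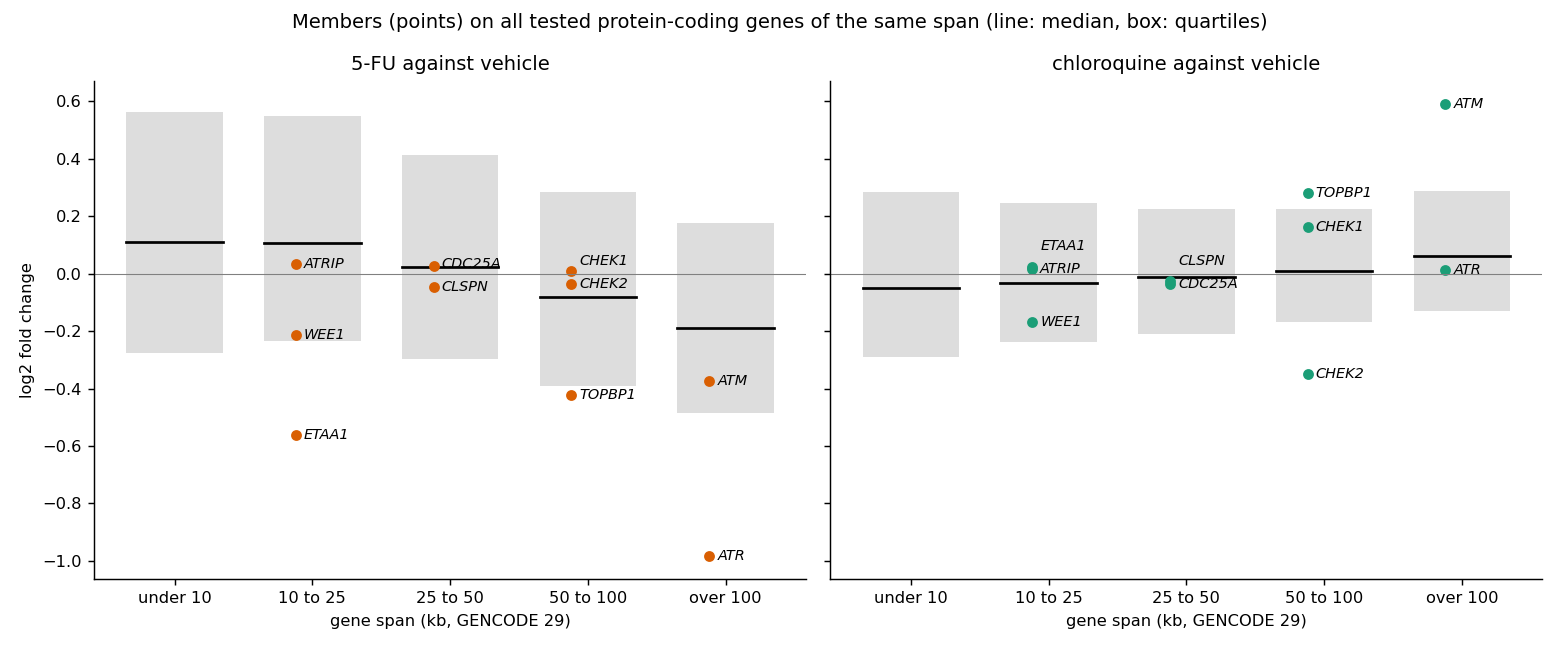
Log2 fold change (y axis) of the 10 genes (labelled points) in 5-FU and in chloroquine against vehicle by class of gene span in kb (x axis), over boxes of the quartiles and lines of the median of all tested protein-coding genes of that span. The medians fall with span in 5-FU, to -0.19 over 100 kb, and ATR lies below the box of its class.

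Some members overlap other genes in the annotation, and since no source says whether reads were counted by strand, shared reads cannot be told apart. These neighbours were picked after the values were seen. HSCB, an iron-sulfur cluster co-chaperone gene on the strand opposite to CHEK2, rose by 0.97 on the log2 scale in the combination and by 0.53 in 5-FU, and was at -0.05 in chloroquine (adjusted p = 0.598), a pattern other than that of CHEK2. STT3A, an oligosaccharyltransferase gene on the same strand as CHEK1, was at -0.55 in the combination, -0.45 in 5-FU and 0.15 in chloroquine, where CHEK1 rose in the combination. NPAT, a histone gene coactivator on the strand opposite to ATM, was at -0.37 in the combination, -0.0037 in 5-FU and 0.16 in chloroquine (adjusted p = 0.155). The rise of ATM in chloroquine against vehicle was therefore larger than that of its neighbour. In the combination against chloroquine, NPAT was called lower (-0.53, adjusted p = 0.000242), as ATM was (-0.68). It was also called lower in the interaction (-0.53, adjusted p = 0.00404), where ATM was at -0.31. Against 5-FU, NPAT was lower in the combination (-0.37, adjusted p = 0.00578) and ATM higher (0.28). The CHEK2 pseudogenes CHEK2P1 to CHEK2P5 had 0 to 5 counts per library.

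For each member, the genes whose centred log2 CPM lay closest over the 13 libraries, by root mean square difference, were looked up. For ATR they were TBCK (0.0671) and PALM2AKAP2 (0.0724), against a root mean square of 0.481 for ATR about its own mean. For ATM they were PRKG1 (0.0700) and NIPAL1 (0.0766), for TOPBP1 DENND4C (0.0412) and SPG11 (0.0433), and for ETAA1 ERGIC2 (0.0699) and ELAVL2 (0.0733). CHEK1 lay closest to STAG2 (0.0459). CHEK2 lay closest to PARP2 (0.0567) and CDCA3 (0.0709). None of the 10 genes was among the nearest pair of another member. CDC25A varied so little (root mean square 0.0396) that its nearest genes share the lack of a pattern.

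A wider list of 36 checkpoint genes was counted for context. In the combination 8 were higher and 13 lower than vehicle (58.3% called, median log2 fold change -0.08), in 5-FU 8 were higher and 11 lower (52.8%, -0.07), and in chloroquine 4 were higher and 14 lower (50%, -0.07). All genes tested had medians of 0.01, 0.01 and 0.02 in the same comparisons. Where all genes were called at 55.4% in the combination, 60.3% in 5-FU and 39.4% in chloroquine, the counts of the list and of its role groups are given as a description, and those of 5 to 8 genes show nothing particular to a role. The count in chloroquine was 6 rather than 18 without the 5 libraries with tissue transcripts.

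In the combination, the largest falls of the list were those of TP53BP1 and NBN, of the break sensors and mediators. TELO2 (-1.03) and PLK1 (-1.01), of other roles, fell about as much. TP53BP1, which steers break repair toward end joining, averaged 46.5 ± 2.21 CPM in the combination, 61.2 ± 0.260 CPM in 5-FU, 82.6 ± 2.61 CPM in chloroquine and 97.6 ± 6.88 CPM in vehicle (SD), with log2 fold changes against vehicle of -1.07, -0.67 and -0.24, all called. NBN, the MRN subunit that recruits ATM, was at -1.05 in the combination, -0.79 in 5-FU and -0.60 in chloroquine, all called. In this role group of 8 genes, 2 were higher and 3 lower in the combination, where 55.4% of all genes were called.

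The group of the 9-1-1 clamp and its loader held 5 genes: RAD9A, RAD1, HUS1, RAD17 and RHNO1, the last a protein that binds the clamp. Of these, 3 were higher and none lower in the combination and in 5-FU, where 55.4% and 60.3% of all genes were called. RHNO1 was among the 3 in 5-FU (0.24). In chloroquine 1 gene was higher and 2 lower. RAD9A, a clamp subunit, averaged 33.2 ± 2.73 CPM in the combination, 53.7 ± 8.01 CPM in 5-FU, 32.9 ± 0.639 CPM in chloroquine and 26.3 ± 2.25 CPM in vehicle (SD). It rose in all 3 comparisons with vehicle, most in 5-FU (1.03 ± 0.0928, adjusted p = 3.20e-07). HUS1, another subunit, was at 0.24 in the combination, 0.39 in 5-FU and -0.30 in chloroquine, all called. Of the 5 fork mediators and RPA subunits, 1 was higher and 2 lower in the combination. RPA1 was at -0.32 and RPA3 at 0.32 there, both called.

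Of 6 related kinase and assembly genes, 4 were lower and none higher in the combination, beside 55.4% of all genes called in either direction. TELO2, which with its TTI partners matures ATM and ATR proteins, averaged 56.6 ± 4.45 CPM in the combination, 113 ± 25.5 CPM in 5-FU, 97.3 ± 6.95 CPM in chloroquine and 115 ± 9.14 CPM in vehicle (SD). Its log2 fold change was -1.03 ± 0.121 in the combination (adjusted p = 5.67e-06), -0.03 in 5-FU (adjusted p = 0.825) and -0.25 in chloroquine (adjusted p = 0.114). KAT5, the acetyltransferase that acts on ATM, was at -0.39 in the combination and -0.31 in chloroquine, both called, and at -0.16 in 5-FU (adjusted p = 0.119).

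Of the 6 recovery and turnover genes, 1 was higher and 3 lower in the combination, beside the same 55.4% of all genes. PLK1, the mitotic kinase that ends the checkpoint, averaged 112 ± 4.57 CPM in the combination, 136 ± 19.1 CPM in 5-FU, 128 ± 3.02 CPM in chloroquine and 226 ± 5.73 CPM in vehicle (SD), and was called lower in all 3 treatments (-1.01, -0.74 and -0.83). USP28, a deubiquitinase of the damage response, was called at -0.57 in the combination and -0.82 in 5-FU and was at 0.19 in chloroquine (adjusted p = 0.0727). Of the 6 genes of mitotic entry, CCNB1, the mitotic cyclin, was called at -0.65 in the combination, -0.48 in 5-FU and -0.64 in chloroquine. CDC25B, a phosphatase related to CDC25A, was called at 0.23 in the combination and 0.65 in 5-FU and was at -0.0075 in chloroquine (adjusted p = 0.952).

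**Figure D5:**
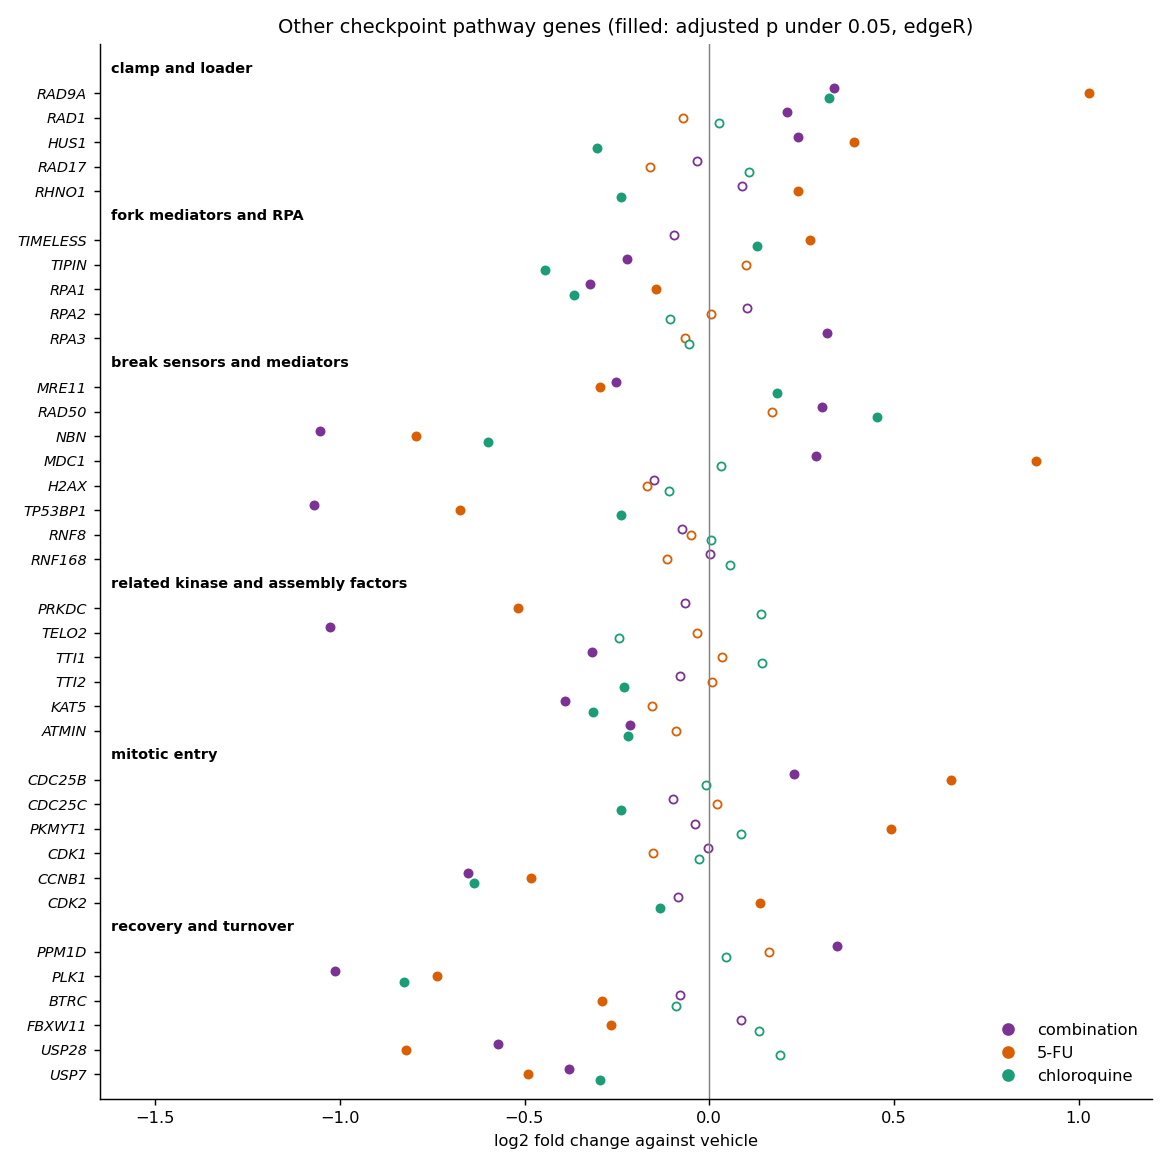
Log2 fold changes against vehicle (x axis) of the 36 genes of the wider list, by role, in the combination, 5-FU and chloroquine, with filled points for genes called. TP53BP1, NBN, TELO2 and PLK1 lie beyond -1 in the combination, and RAD9A lies at 1.03 in 5-FU.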

How the data were processed

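The values deposited by the authors are raw read counts, in 1 table with human symbols. Total RNA was sequenced after directional library preparation, per the labels' protocols. The aligner, counter, annotation and use of strand were not given in the sources used. DESeq and the mouse build GRCm38 appear in the submitters' processing notes, beside human symbols, so the build of the counts is uncertain and coordinates are those of RefSeq GRCh38.p14.

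After filterByExpr of edgeR, which left 99.84% or more of each library's counts, 1 quasi-likelihood model (edgeR 4.0.16, R 4.3.3) with TMM scaling and a mean for each group took in all 13 libraries, and p-values were adjusted over 19514 genes in each of 6 comparisons. The scripts were tested on simulated data. Alternatives used DESeq2 1.42.0 (its Wald test and its RLE size factors), limma 3.58.1 (voom), library size only, other filters, only the groups compared, a replicate block, a term for libraries with at least 50 counts of COL1A2, those 5 libraries left out, and each library left out.

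The paired fit took the replicate numbers to pair libraries of the combination and 5-FU, whose same-numbered residuals correlated at 0.341, 0.743 and 0.339. The highest, 0.743, was between combination 2 and 5-FU 2, the libraries of these groups with tissue transcripts. A shared number and shared tissue transcripts cannot be told apart there. No other pair of groups had 3 correlations over 0.1, and no label says what a number shares. Exon lengths and spans came from GENCODE release 29 by symbol. All members were named, and of the wider list up to 2 called genes per role with the largest absolute log2 fold change in the combination, and the 2 nearest genes per member; other genes of this rule are not reported here. Members and lists were chosen with earlier results of these data known.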

Additional observations from a re-analysis of the deposited data

Results flagged for a closer look

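The effect of one drug differed with the presence of the other, by the interaction test of edgeR's quasi-likelihood model, for 2 of the 10 genes. Of all genes tested, 39.9% were called in this test, so the count is no result about the checkpoint genes. For ATM the combination lay below the sum of both drugs' effects by -0.31 on the log2 scale (adjusted p = 0.0450). For WEE1 it lay above the sum by 0.26 (adjusted p = 0.0129). The ATM call was lost under 11 alternatives and that of WEE1 under 3. Of the 10 vehicle groups of 4 libraries, 1 per gene, 0 held a library that stood apart by Dixon's 95% criterion, and groups of 3 were not examined.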

How the results depend on the processing

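Of 60 values (10 genes in 6 comparisons), 29 were called, and 13 of these kept their call under each alternative tried: ATR in both groups with 5-FU against vehicle and in the combination against chloroquine, ATM in chloroquine and in the combination against chloroquine, CHEK1 in the combination against vehicle and 5-FU, CHEK2 in both groups with chloroquine against vehicle and in the combination against 5-FU, ETAA1 in 5-FU, and TOPBP1 in 5-FU and in the combination against chloroquine. The other 16 lost it under at least 1. Of the values that were not called, 11 passed in the same direction under at least 1 alternative. CHEK2 in 5-FU against vehicle passed as well, with its sign turned, with library size only. The causes were not tested. Calls over all genes also changed with the setting, so changes in the counts below are no result about the checkpoint genes. The combination against vehicle had 7 calls, and 4 with library size only, with the replicate block over all libraries and without the 5 libraries with tissue transcripts, 3 with a filter at 10 CPM, and 4 to 7 without 1 library. The combination against 5-FU had 5 calls, 2 when only the groups compared were fitted, 4 in the paired fit, and 2 to 6 without 1 library. The combination against chloroquine had 6 calls, 3 without the 5 libraries and 3 to 6 without 1 library. The interaction had 2 calls, 1 with RLE scaling and without the 5 libraries, 4 with a term for them, and 1 to 4 without 1 library. For the wider list of 36 genes, leaving out the 5 libraries gave 6 calls rather than 18 in chloroquine and 10 rather than 16 in the combination against chloroquine. Over all genes, it gave 4396 calls rather than 7682 in chloroquine against vehicle.

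Among values called under one scaling or the other, library size only turned the sign of 3: ATRIP (0.014, adjusted p = 0.836) and WEE1 (0.023, adjusted p = 0.725) in the combination against vehicle, and CHEK2 in 5-FU against vehicle (0.16, adjusted p = 0.0114). That scaling moved the median of all genes by 0.15 in the combination, 0.19 in 5-FU and 0.10 in chloroquine against vehicle, so that 67.0%, 69.3% and 69.3% of calls were higher, against 50.8%, 51.1% and 51.4% with TMM, and by -0.14 in the interaction (32.0% against 51.6%). Relative to those shifts, WEE1 stayed below and CHEK2 in 5-FU near the middle of all genes. The filter at 10 CPM moved the median in 5-FU by 0.10. With 3 or 4 libraries a group, SEs of 0.04 to 0.10 against vehicle mean that the smallest called differences, near 0.13, lie close to what these data resolve.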
